A study of Mus musculus with 52 samples.

Results

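Myb, Etv6, Runx1, Meis1, Erg, Cbfb, Lyl1, Mllt3 and Cd34 are 9 genes of early blood progenitors, looked up by symbol among the 49466 genes of the deposited count tables, and all 9 were found in both tables. The cells were daughters of sorted mouse burst-forming unit-erythroid founders (BFU-E), which are red cell progenitors still able to divide many times. Founders were sorted from C57/Bl6J fetal livers taken on embryonic day 14.5, after depletion of cells with lineage, Sca-1, CD16/32 or CD41 staining. Each was kept alone in a well whose medium held the synthetic glucocorticoid dexamethasone at 100 nM, or in that medium without it, and both cells of a founder that had divided once by 16 hours were sequenced separately. This gave 13 dexamethasone and 13 untreated pairs, or 52 libraries. The labels name no embryo or litter, so the founder with its well is the replicate. The p-values for treatment rest on the spread between founders. Those for likeness of daughters set the differences between founders against the spread between sisters.

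Myb, Runx1, Etv6, Erg, Lyl1 and Meis1 encode DNA-binding transcription factors of haematopoietic stem and progenitor cells, and Cbfb encodes the partner subunit that strengthens the binding of RUNX proteins to DNA. Mllt3 encodes AF9, a chromatin reader that joins transcription elongation and DOT1L complexes and is known from human stem cells as a maintenance factor and from leukaemia as a fusion partner of KMT2A. Cd34 encodes a surface sialomucin used to recognise stem and progenitor cells, and it is also made by endothelial cells. Red cell development runs under GATA1, while granulocyte and monocyte progenitors make myeloperoxidase, encoded by Mpo.

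Library totals ranged from 0 to 5606500 counts, with medians of 2577701 in dexamethasone and 2644093 in untreated libraries. Exactly 4 libraries, all untreated and in pairs 4, 7 and 12, held fewer than 100000 counts. The other 48 libraries made 23 pairs in which both cells held enough counts. A library was called Mpo-high with at least 100 CPM (counts scaled to the library total) of Mpo and more Mpo than Gata1, and Gata1-high with at least 10 CPM of Gata1 and more Gata1 than Mpo. By this rule 12 libraries were Mpo-high and 36 Gata1-high. In 5 pairs (dexamethasone 6, 7 and 10, untreated 9 and 10) both cells were Mpo-high, in 16 pairs (8 per treatment) both were Gata1-high, and 2 dexamethasone pairs, 9 and 12, held 1 cell of each class. Nearest to the border stood pair 9, with Mpo at 556 and 451 CPM against Gata1 at 477 and 648 CPM, so its cells carried both.

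The classes were then described by markers other than Mpo and Gata1, which had chosen them. Of the 14 other myeloid markers a median of 6 reached 10 CPM in Mpo-high libraries (range 1 to 9) and 0 in Gata1-high libraries (range 0 to 2). Of the 17 other erythroid markers the median was 3 in Mpo-high (range 1 to 15) and 13 in Gata1-high libraries (range 6 to 16), so single libraries overlapped in these. With Gata1 and Mpo counted, the Mpo-high cell of mixed pair 9 held 16 of 18 erythroid and 2 of 15 myeloid markers at 10 CPM. Its Gata1-high sister held 14 and 1, so by markers the 2 cells were alike and mainly erythroid. The summed erythroid markers without Gata1 spanned 123 to 68067 CPM in Mpo-high libraries, where the top value came from Kel at 66541 CPM in dexamethasone pair 10, and 1605 to 16097 CPM in Gata1-high libraries. At least 3 of 9 megakaryocyte markers reached 10 CPM in 1 of 12 Mpo-high and in 10 of 36 Gata1-high libraries, while 0 libraries had 3 markers of mast cells, lymphocytes, macrophages, hepatocytes or endothelium.

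Cd34 and Mllt3 were the 2 genes that lay furthest apart between the classes, in opposite directions, and their promoters are shown for that reason. Cd34 (ENSMUSG00000016494) lies on chromosome 1 from 194938819 to 194961279 on the plus strand of GRCm38, and Mllt3 (ENSMUSG00000028496) on chromosome 4 from 87769925 to 88033364 on the minus strand. The sequences, from RefSeq with build GRCm38.p6, run from 250 bases before to 50 bases after a start of the gene, 5′ to 3′ on the strand of the gene. Capitals mark matches on either strand to short core motifs: GATAA for GATA factors, TGTGGT for RUNX, GGAAG for ETS factors and AACGG for MYB. The letters searched were chosen after the sequences had been seen.
Cd34, chr1:194938571-194938870, plus strand: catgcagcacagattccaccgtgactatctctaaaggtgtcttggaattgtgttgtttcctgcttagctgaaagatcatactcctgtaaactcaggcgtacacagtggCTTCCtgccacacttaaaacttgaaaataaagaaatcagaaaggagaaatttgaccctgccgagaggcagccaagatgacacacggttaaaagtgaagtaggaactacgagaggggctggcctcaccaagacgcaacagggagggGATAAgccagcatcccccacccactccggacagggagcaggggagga
Mllt3, chr4:88033358-88033657, minus strand: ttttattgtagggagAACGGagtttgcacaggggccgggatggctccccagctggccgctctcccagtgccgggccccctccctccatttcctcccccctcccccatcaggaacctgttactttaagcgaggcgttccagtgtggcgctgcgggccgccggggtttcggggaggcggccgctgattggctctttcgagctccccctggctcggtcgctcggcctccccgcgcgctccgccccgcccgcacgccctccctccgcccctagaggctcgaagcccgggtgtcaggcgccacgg

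The Cd34 window held 1 GATAA and 1 GGAAG match and the Mllt3 window 1 AACGG match. Among 32851 RefSeq promoter windows of the same length GATAA was present in 25.4%, TGTGGT in 16.8%, GGAAG in 71.4% and AACGG in 17.4%. In the window of Runx1 TGTGGT occurred 2 times and in that of Meis1 1 time, and the 4 motifs had 0 matches in the window of Myb. A match in these letters is a description of the sequence and was not tested as a binding site.

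Cd34 was high in every cell of the Mpo-high pairs and near 0 in all but 1 cell of the Gata1-high pairs. With dexamethasone the cells of Mpo-high pairs held 1564 and 857 CPM in pair 6, 335 and 797 CPM in pair 7, and 113 and 662 CPM in pair 10. Without it they held 252 and 794 CPM in pair 9, and 1669 and 1095 CPM in pair 10. In the 32 libraries of Gata1-high pairs the level was 0 in 11 and reached 10 CPM in 1. The pair means of log2(CPM + 1) were 9.30 ± 0.97 in Mpo-high (SD, n = 5 pairs) and 0.94 ± 1.19 in Gata1-high pairs (SD, n = 16 pairs), a difference of 8.36, and the classes did not overlap. Of all 8076 genes with enough counts, 0.508% lay above and 0.433% below in this way, without overlap. Genes seen in Mpo-high cells alone passed the limit on counts less easily, since fewer libraries were Mpo-high, and this affects these shares. Since the classes were cut from the same libraries, these differences are descriptions and carry no test.

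The exception among Gata1-high cells was cell 2 of dexamethasone pair 11. It held 431 CPM of Cd34 from 1361 reads and 414 CPM of Myb, together with 2732 CPM of Gata1, the highest Gata1 level of all libraries. It carried 17.1 CPM of Mpo, and 1 of the 14 other myeloid markers reached 10 CPM. Its sister held 0.956 CPM of Cd34, 2.39 CPM of Myb and 284 CPM of Gata1. Of the endothelial markers, Kdr, Cdh5, Emcn and Stab2 were at 0 in all libraries of both classes, and Pecam1 was at 0.634 CPM or less in this pair.

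The 2 mixed pairs were low in Cd34. The cells of pair 9 held 0.400 and 7.56 CPM, and the cells of pair 12 held 9.51 CPM in the Mpo-high cell, from 2 reads of a library of 210383 counts, and 1.63 CPM in its Gata1-high sister. Mpo stood at 5633 CPM in that cell of pair 12, beside 7596 CPM of the erythroid regulator gene Klf1. Cd34 thus reached 10 CPM in 10 of 12 Mpo-high libraries, where the 12 include the cell of pair 9 with mainly erythroid markers. Outside the classes, cell 2 of untreated pair 12, a shallow library, held 2 reads of Cd34 beside 2205 CPM of Mpo, and its Gata1-high sister held 0.713 CPM of Cd34.

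Mllt3 had the opposite pattern. Of the 10 cells of Mpo-high pairs 9 held 0 reads, where 3 reads would correspond to 0.806 to 2.36 CPM, and the other, cell 2 of dexamethasone pair 6, held 1 read. In the Gata1-high pairs 23 of 32 libraries reached 10 CPM, with a top value of 335 CPM in cell 2 of untreated pair 1. Pair means of log2(CPM + 1) were 0.05 ± 0.12 in Mpo-high (SD, n = 5) and 4.52 ± 2.17 in Gata1-high pairs (SD, n = 16), a difference of -4.46. The classes overlapped at their edges, because Gata1-high dexamethasone pair 11 stood at 0.20, below Mpo-high dexamethasone pair 6 at 0.26. Dexamethasone pair 13, also Gata1-high, stood just above at 0.35. The cells of pairs 11 and 13 held at most 1 read each. In mixed pair 9 both cells made Mllt3, at 96.4 and 197 CPM, so its Mpo-high cell was the 1 of 12 with the gene. That cell was Mpo-high by the rule alone, with 16 of 18 erythroid and 2 of 15 myeloid markers at 10 CPM. In mixed pair 12 both cells were at 0.

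**Figure D1:**
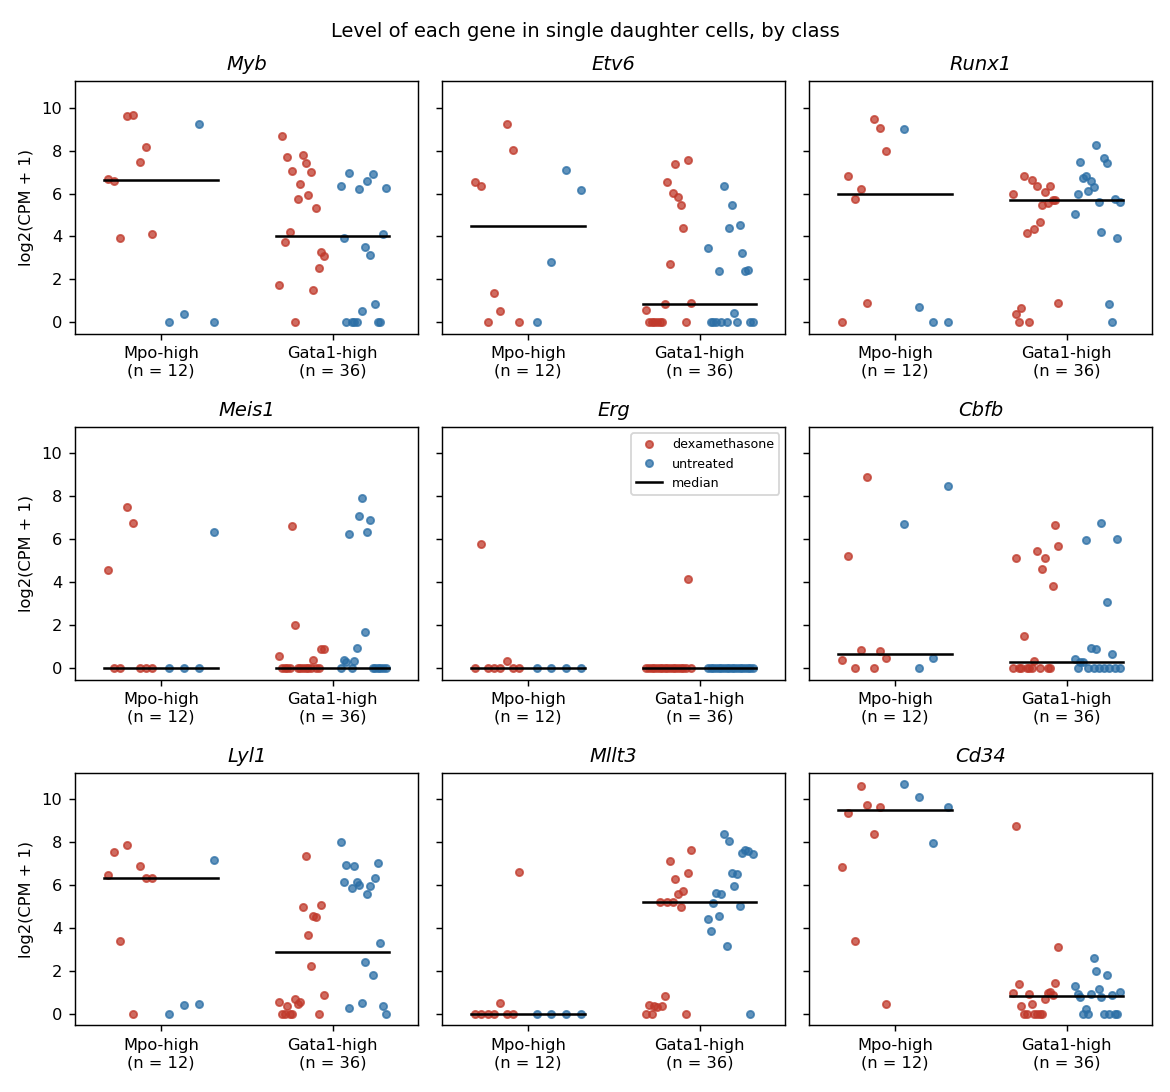
Level of each of the 9 genes in single daughter cells, as log2(CPM + 1) on the vertical axis, in 12 Mpo-high and 36 Gata1-high libraries, with dexamethasone in red and untreated in blue, and the median of a class as a black line. Cd34 sits high in 10 of 12 Mpo-high cells and in 1 of 36 Gata1-high cells, Mllt3 shows the opposite order, and the other genes have cells at 0 and cells above 10 CPM in both classes.

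Myb, the regulator of progenitor proliferation, was detected in most cells of either class and reached its highest levels in Mpo-high cells. With dexamethasone the Mpo-high pairs held 788 and 804 CPM in pair 6, 178 and 289.9 CPM in pair 7, and 100.1 and 95.8 CPM in pair 10. The untreated Mpo-high pairs held 600.0 and 0 CPM in pair 9 and 0 and 0.315 CPM in pair 10. All 6 treated cells thus carried Myb, against 1 of 4 untreated cells. Pair means were 5.78 ± 3.62 in Mpo-high (SD, n = 5) and 4.31 ± 2.06 log2(CPM + 1) in Gata1-high pairs (SD, n = 16), and the difference of 1.48 was smaller than the spread within either class. It was 2.88 among dexamethasone pairs alone and -1.05 among untreated pairs alone, on 3 and 2 Mpo-high pairs. Runx1, at 0.73 and -3.02, and Meis1, at 2.48 and -0.79, also had opposite signs in dexamethasone and untreated pairs. The difference between the treatments was not tested for these genes.

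Etv6, an ETS family repressor, averaged 4.81 ± 3.44 in Mpo-high (SD, n = 5) and 2.50 ± 1.94 log2(CPM + 1) in Gata1-high pairs (SD, n = 16), a difference of 2.31. Its highest level was 609 CPM, in cell 1 of dexamethasone pair 7, whose sister held 259.7 CPM. Both cells also carried it in Mpo-high pairs dexamethasone 10 and untreated 9, while dexamethasone pair 6 and untreated pair 10 stayed at or below 5.99 CPM. Of the cells of Gata1-high pairs 12 of 32 reached 10 CPM.

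Runx1 and its partner Cbfb differed in how often they were seen. Runx1 reached 10 CPM in 7 of 12 Mpo-high and 29 of 36 Gata1-high libraries, the most of the 9 genes in Gata1-high cells. Its pair means were 4.21 ± 3.34 in Mpo-high (SD, n = 5) and 5.06 ± 1.89 log2(CPM + 1) in Gata1-high pairs (SD, n = 16). The lowest Gata1-high pair, untreated 6, had 0.831 and 0 CPM, and the other 7 untreated Gata1-high pairs had at least 14.2 CPM in every cell. Cbfb reached 10 CPM in 4 of 12 Mpo-high and 10 of 36 Gata1-high libraries, with pair means of 3.18 ± 1.76 (SD, n = 5) and 1.80 ± 1.77 log2(CPM + 1) (SD, n = 16). Its top levels were 475 CPM in cell 2 of dexamethasone pair 6 and 353 CPM in cell 2 of untreated pair 9, both Mpo-high, and their sisters held 0.786 and 0.396 CPM.

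Lyl1, a basic helix-loop-helix factor related to Tal1, had pair means of 4.32 ± 2.74 in Mpo-high (SD, n = 5) and 3.26 ± 2.48 log2(CPM + 1) in Gata1-high pairs (SD, n = 16). With dexamethasone 5 of 6 cells of Mpo-high pairs and 6 of 16 cells of Gata1-high pairs reached 10 CPM. Without it 1 of 4 cells of Mpo-high and 10 of 16 of Gata1-high pairs did. The order of the classes therefore went opposite ways in the treatments, by 3.67 among dexamethasone pairs and -2.32 among untreated pairs, on 3 and 2 Mpo-high pairs, and the difference between these was not tested. Exons of Lyl1 share bases with the antisense gene Nfix, which reached 10 CPM in 7 of 48 libraries, and whether the reads were counted by strand is not given.

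Meis1, a HOX cofactor of stem cells, was seen in few founders. It reached 10 CPM in 3 of 5 Mpo-high and 5 of 16 Gata1-high pairs by their mean. Both cells held it in 2 pairs, with 181 and 106 CPM in dexamethasone pair 6, which is Mpo-high, and 136 and 245 CPM in untreated pair 2, which is Gata1-high. Erg, an ETS factor of stem cells and endothelium, was above 10 CPM in 2 libraries, at 54.7 CPM in cell 2 of Mpo-high dexamethasone pair 10 and at 16.8 CPM in cell 2 of Gata1-high dexamethasone pair 8. In all untreated libraries with at least 100000 counts it had 0 reads, where 3 reads would be 0.535 to 13.3 CPM. Cell 2 of pair 10 also held Pecam1 at 52.0 CPM, and with it the megakaryocyte markers Itga2b at 331 and Gp1bb at 33.7 CPM. Itga2b encodes CD41, a surface protein whose carriers the founder sort depleted. Cell 2 of pair 8 held Itga2b at 91.2, Gp1bb at 97.2 and Gp5 at 234 CPM, and Pf4, Ppbp, Gp1ba, Gp9 and Vwf were at 0 in it. Its sister, with 0 reads of Erg, held Itga2b at 604, Gp1bb at 244 and Gp9 at 62.5 CPM. Megakaryocyte markers at 10 CPM were thus 4 of 9 in the cell with Erg and 5 of 9 in the sister without it. Their part in the Erg signal was not tested.

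Of the 9 genes 8 had enough counts for the class comparison, Erg being the exception. The levels of 2 of them, Cd34 and Etv6, were at least 2 log2 units higher in Mpo-high pairs, as for 2.75% of all 8076 genes. The level of 1, Mllt3, was at least 2 units lower, as for 20.7% of all genes. The median difference was 1.22 over the 8 genes and -0.86 over all genes. The limit on counts asked for at least 5 counts in at least 10 libraries, while 12 libraries were Mpo-high and 36 Gata1-high. Genes seen in Mpo-high cells alone therefore passed less easily than genes seen in Gata1-high cells alone. The shares of higher and lower genes and the median over all genes carry this imbalance. Median genes detected were 6924 in Mpo-high and 8002 in Gata1-high libraries. Per transcript length, in TPM computed from summed exon lengths, the order in Mpo-high pairs began with Cd34 at 313 ± 179 TPM, Lyl1 at 130.1 ± 81.1 TPM and Myb at 89.9 ± 102 TPM (SD, n = 5). In Gata1-high pairs Lyl1 stood at 60.9 ± 72.0 TPM, Myb at 21.8 ± 19.7 TPM, Mllt3 at 16.2 ± 14.6 TPM and Runx1 at 16.1 ± 13.4 TPM (SD, n = 16). Neighbours in these orders differed by less than their spread, with the exception of Cd34 over Lyl1 in Mpo-high pairs, where the gap of the means was close to the SD of Cd34.

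Partner genes of the 9 were set beside them to place these levels. Of 24 other stem and progenitor transcription factors 16 had enough counts. In that group 3 were at least 2 log2 units higher in Mpo-high pairs, namely Spi1, the PU.1 gene of myeloid cells (8.33 ± 0.54 against 1.83 ± 1.92), Hhex (6.44 ± 1.57 against 2.39 ± 1.99) and the ETS gene Fli1 (5.40 ± 0.62 against 2.52 ± 2.47). As many were lower, namely Gfi1b, a repressor needed for red cells (2.37 ± 2.25 against 7.38 ± 1.34), Bcl11a (2.84 ± 2.04 against 6.76 ± 1.24) and Tal1 (1.69 ± 2.50 against 4.37 ± 2.19, all log2(CPM + 1), SD, n = 5 and 16 pairs). The median difference of the 16 was -0.72.

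The elongation and DOT1L partners of AF9 lay on the Gata1-high side with Mllt3, as most genes with enough counts did. Of 13 such genes 12 had enough counts and 4 of these were at least 2 log2 units lower in Mpo-high pairs, namely Eaf1 (-3.08), Ell2 (-3.08), Mllt10 (-2.83) and Dot1l (-2.31), with a median difference of -1.60. Of 8 measured Myb cofactors and classical targets 4 were lower by this amount, namely Ccnb1, the cyclin B1 gene (-3.58), the TFIID gene Taf12 (-3.09), Tal1 (-2.68) and Myc (-2.16), while Myb itself was at 1.48. Of the core binding factor partners only Sin3a, a corepressor gene, passed this size among 6 measured (-2.33). Of 5 measured surface genes listed beside Cd34, Cd48 was higher in Mpo-high pairs (5.44 ± 1.81 against 1.07 ± 1.90, SD), and Kit, the stem cell factor receptor used in the sort, was at -0.85. Of 11 HOX, MEIS and PBX genes 2 had enough counts, Pbx2 and Pknox1, at -0.54 and -1.43.

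**Figure D2:**
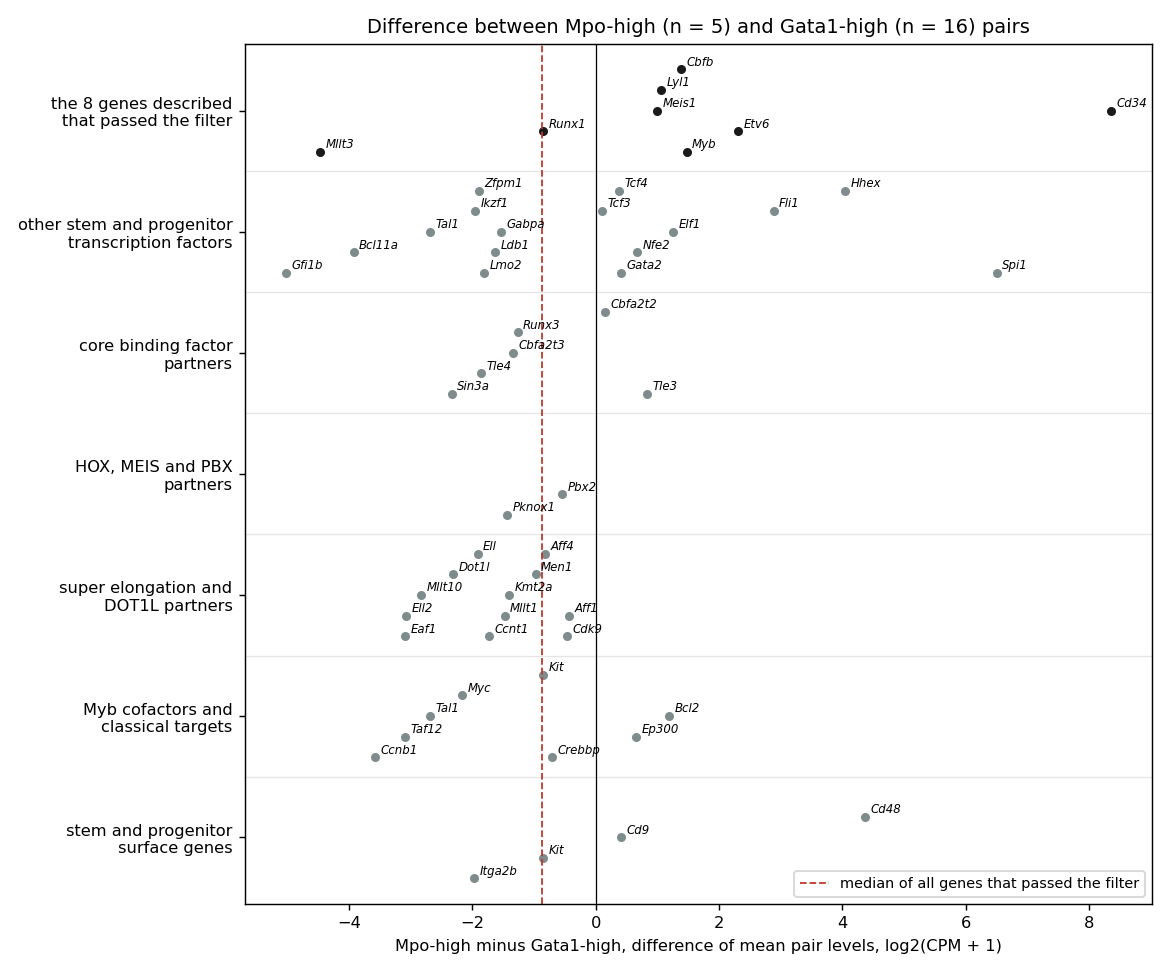
Difference between the mean pair levels of Mpo-high (n = 5) and Gata1-high pairs (n = 16) in log2(CPM + 1) on the horizontal axis, 1 point per gene, with the 8 genes described here in the top row and partner lists below. The dashed line is the median of all genes at -0.86, Cd34 stands at 8.36 and Mllt3 at -4.46, and the points of the elongation and DOT1L partners all lie left of 0.

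The next comparison asked whether the daughters of a founder resembled each other more than cells of other founders. Cd34 was the gene of the 9 for which this was called, with an adjusted p of 3.07e-05 for the pair terms in edgeR's quasi-likelihood F test. Of all 8078 genes tested 276 were called, or 3.42%. Daughters differed by 1.25 ± 1.60 log2(CPM + 1) in Cd34 (SD, n = 23 pairs), while cells of different founders of the same treatment differed by 3.95 on average. These founders were of both classes, so the 3.95 and the pair terms include the difference in Cd34 between the classes. With the 7 plate columns as a covariate in edgeR 82 genes were called, or 1.02%, and Cd34 was no longer called (adjusted p = 0.0745). Both daughters of a founder shared a column, so this covariate also took up part of the differences between founders.

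Within the Gata1-high pairs alone, where Cd34 and Meis1 had too few reads to be tested, edgeR called 27 of 7343 genes (0.368%) and limma 217 (2.96%), with no other gene of the 9 among either. The within-pair difference of Cd34 was 1.07 ± 1.84 there (SD, n = 16 pairs), against 1.23 between founders. In the Mpo-high pairs it was 1.38 ± 0.76 (SD, n = 5 pairs), against 1.56 between founders. Likeness of daughters in Cd34 beyond their shared class was not tested.

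For Mllt3 the daughters differed by 1.74 ± 2.26 log2(CPM + 1) (SD, n = 23), against 3.37 between founders, with an adjusted p of 0.157 in edgeR. The 3.37 includes the difference between the classes. Within Gata1-high pairs the daughters differed by 2.41 ± 2.43 (SD, n = 16), against 2.81 between founders. Within Mpo-high pairs they differed by 0.10 ± 0.23 (SD, n = 5), against 0.13. Over the 23 pairs, both cells reached 10 CPM in 10 pairs, 1 cell in 5 and neither in 8. Limma on all tested pairs gave an adjusted p of 0.1001, with 6.1% of genes called. Limma on these 23 pairs, an analysis added after the data were seen, gave 0.0284, with 8.12% of genes called, so the call depends on the pairs and the test chosen. That fit also spans both classes. Meis1 followed in edgeR with an adjusted p of 0.127, and the rest ranged from 0.226 for Etv6 to 0.577 for Runx1.

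Detection in 1 daughter alone was common. In Cbfb 2 pairs had both cells, 10 had 1 cell and 11 had no cell at 10 CPM, and the daughters differed by 3.22 ± 2.87 (SD, n = 23), no less than the 2.89 between founders. In all 4 Mpo-high pairs with Cbfb, 1 sister held it and the other did not. In Myb the counts of pairs were 11 with both, 8 with 1 and 4 with no cell. In Runx1 they were 13, 8 and 2, in Lyl1 7, 9 and 7, and in Etv6 5, 8 and 10. Untreated pair 9 shows the range, since cell 1 held 600.0 CPM of Myb from 1515 reads and its sister held 0 reads, although both were high in Mpo and Cd34. Whether such a sister lacked the transcript or its reads were not captured cannot be told apart in these data.

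**Figure D3:**
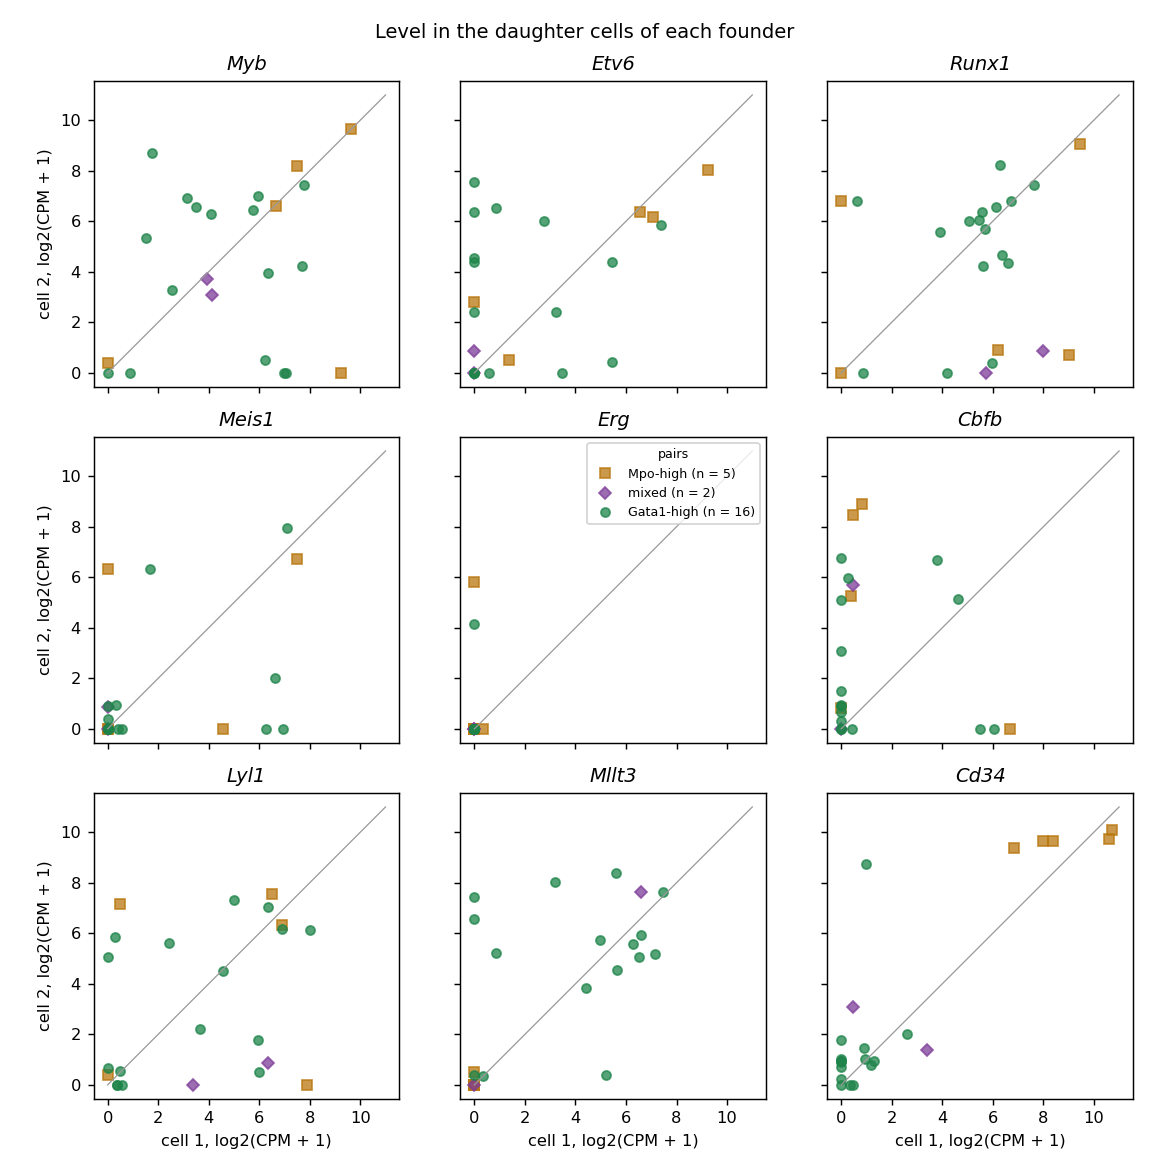
Level in cell 2 against level in cell 1 of the same founder, both in log2(CPM + 1), for 23 pairs in which both libraries held at least 100000 counts, with Mpo-high (n = 5), mixed (n = 2) and Gata1-high pairs (n = 16) marked and a grey line of equal levels. Cd34 puts the 5 Mpo-high pairs at the upper right, apart from dexamethasone pair 11 at the upper left, while Cbfb has 10 pairs in which 1 cell alone reached 10 CPM.

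The third comparison was that of dexamethasone with no treatment. None of the 9 genes changed by edgeR's quasi-likelihood test on counts summed over a pair, in which 0 of 6429 genes (0%) were called and 102 had an unadjusted p under 0.05. By limma 0 genes passed and 251 had such a p, and by DESeq2 Mpo and Tmsb4x passed, 2 genes in all, beside 140 with such a p. In the tested set were 6 of the 9 genes, since Meis1, Erg and Cd34 did not pass the filter on low counts. None of the 6 was among the 74 genes (1.15%) higher at an unadjusted p under 0.05.

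Myb had the lowest p. Its pair mean was 5.60 ± 2.06 log2(CPM + 1) with dexamethasone and 2.79 ± 2.27 without (SD, n = 13 pairs each), and edgeR gave a log2 fold change of 1.71 ± 0.97 (SE) with an adjusted p of 1.00. Limma on the pair means gave a difference of 2.81 ± 0.87 (SE) with an unadjusted p of 0.00265 and an adjusted p of 1.00. These values include the 3 untreated pairs with a shallow library. Without those pairs limma gave 2.35 ± 0.88 (SE, unadjusted p = 0.0132) and edgeR 1.36 ± 0.98 (SE, unadjusted p = 0.179). Neither fit called Myb. Among pairs with both libraries of at least 100000 counts the lowest dexamethasone pair stood at 2.90, the median at 5.97 and the highest at 9.64, against 0.00, 4.05 and 5.19 in untreated pairs. The pairs overlapped, and 12 of 13 dexamethasone and 7 of 10 untreated pairs had a mean of at least 10 CPM. In plate columns 1 to 4 the log2 fold change was 3.14 ± 1.14 (SE, n = 8 pairs each), and in columns 5 to 7 it was 0.33 ± 1.67 (SE, n = 5 pairs each). The term for that difference had an adjusted p of 0.999 in edgeR. Of these pairs 3 of 13 with dexamethasone and 2 of 10 without were Mpo-high. In the 16 Gata1-high pairs alone Myb averaged 5.15 ± 1.69 with dexamethasone and 3.46 ± 2.13 log2(CPM + 1) without (SD, n = 8 each), with a limma difference of 1.69 ± 0.95 (SE, adjusted p = 0.973).

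Mllt3 had a lower mean with dexamethasone. Pair means were 2.65 ± 2.72 with dexamethasone and 4.44 ± 2.42 log2(CPM + 1) without it (SD, n = 13 each), and edgeR gave -1.33 ± 1.11 (SE, adjusted p = 1.00). In Gata1-high pairs the dexamethasone values had a minimum of 0.20, a mean of 3.39 ± 2.33 and a maximum of 6.16, against 3.72, 5.64 ± 1.32 and 7.56 in untreated pairs (SD, n = 8 each). Of the cells behind them 9 of 16 with dexamethasone and 14 of 16 without reached 10 CPM. The difference by limma was -2.26 ± 0.94 (SE), with an unadjusted p of 0.0267 and an adjusted p of 0.973, so the difference was not called. In plate columns 1 to 4 edgeR gave -1.78 ± 0.88 (SE, n = 8 pairs each) and in columns 5 to 7 0.52 ± 2.57 (SE, n = 5 pairs each).

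The others gave smaller or less even values. Etv6 was at a log2 fold change of 2.15 ± 1.26 in edgeR (SE), Lyl1 at -0.50 ± 0.96, Runx1 at 0.20 ± 0.78 and Cbfb at 0.20 ± 1.26, each with an adjusted p of 1.00. For Etv6 the estimate was 3.52 ± 1.31 (SE) in plate columns 1 to 4 and -0.57 ± 2.51 in columns 5 to 7. Lyl1 in Gata1-high pairs averaged 2.19 ± 2.26 with dexamethasone and 4.34 ± 2.34 log2(CPM + 1) without (SD, n = 8 each), and limma gave -2.15 ± 1.10 (SE, adjusted p = 0.973). Meis1 in the same pairs averaged 0.66 ± 1.49 and 2.37 ± 2.67 (SD, n = 8 each), with a limma difference of -1.71 ± 0.98 (SE, adjusted p = 0.973).

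The pair means of Cd34 overlapped between the treatments. They were 3.06 ± 3.70 with dexamethasone and 2.32 ± 3.44 log2(CPM + 1) without it (SD, n = 13 each). In Mpo-high pairs they were 9.10 ± 1.04 with (SD, n = 3) and 9.61 ± 1.13 without (SD, n = 2), and in Gata1-high pairs 1.03 ± 1.60 and 0.86 ± 0.67 (SD, n = 8 each). On summed counts of the Gata1-high pairs, edgeR without the filter gave a log2 fold change of 5.16 ± 1.89 (SE, unadjusted p = 0.0136, adjusted p = 0.185). The 1 cell at 10 CPM in these pairs was cell 2 of dexamethasone pair 11. Limma on the pair means there gave 0.17 ± 0.57 (SE, adjusted p = 0.998). In plate columns 1 to 4 the log2 fold change of all pairs was 7.75 ± 2.10 (SE), and in columns 5 to 7 it was -1.64 ± 2.03. Columns 1 to 4 held 2 dexamethasone and 0 untreated Mpo-high pairs, and columns 5 to 7 held 1 dexamethasone and 2 untreated ones. Columns 5 to 7 also held the 2 mixed pairs, both with dexamethasone. Untreated pairs with a shallow library numbered 2 in columns 1 to 4 and 1 in columns 5 to 7. The classes were thus unevenly spread over the treatments within these sets, and their part in the fold changes was not tested. For Erg the edgeR fit without the filter gave an adjusted p of 0.0401, in a fit that called 2180 of 18871 genes, or 11.6%. That call rests on 2 libraries above 10 CPM. Without the pairs holding a shallow library the adjusted p was 0.0721 and 0 of 18628 genes were called.

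**Figure D4:**
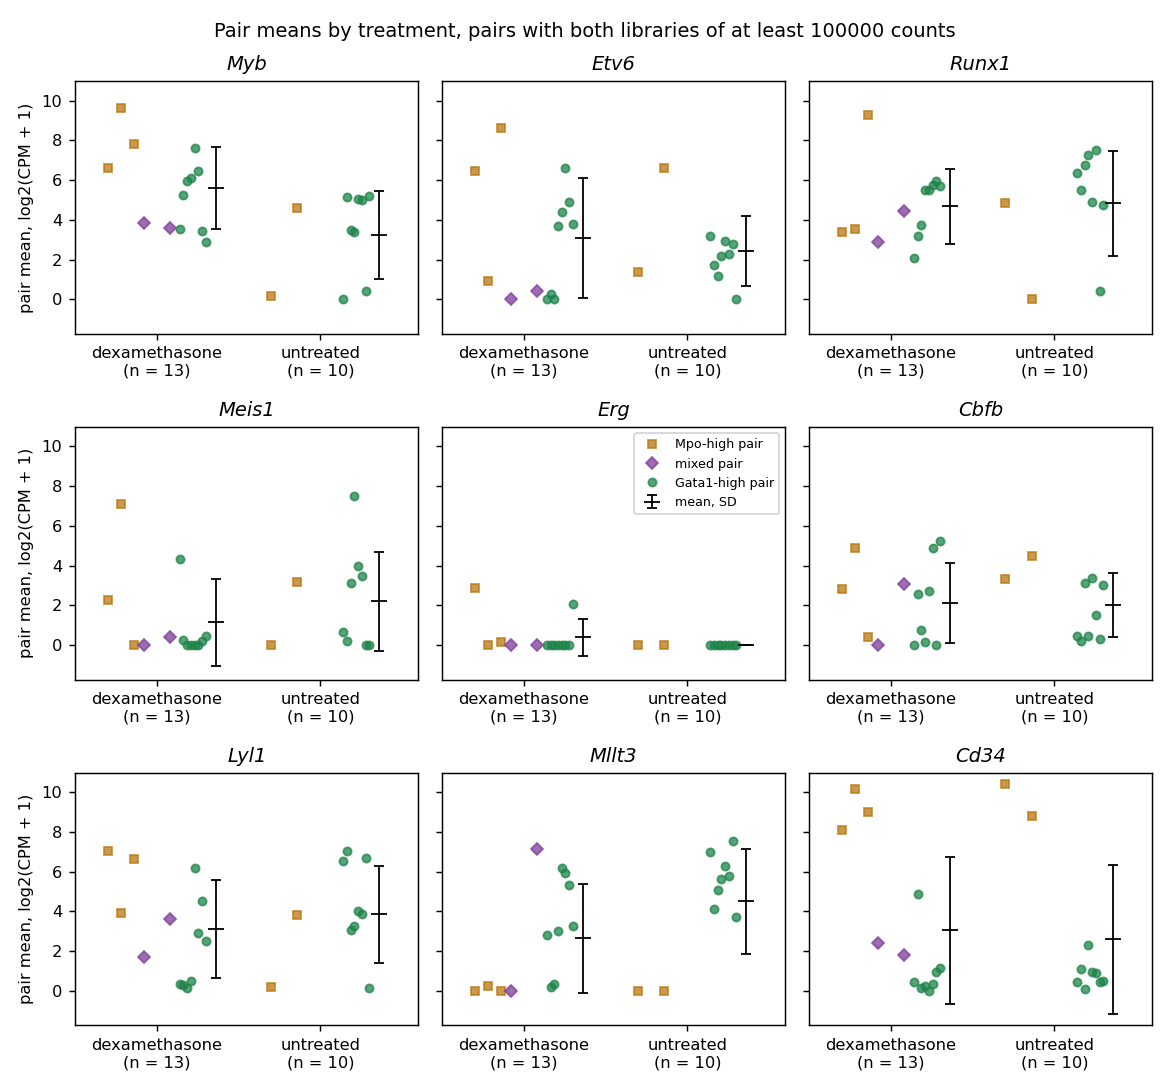
Pair means of log2(CPM + 1) for the 9 genes in 13 dexamethasone and 10 untreated pairs with both libraries of at least 100000 counts, with Mpo-high, mixed and Gata1-high pairs marked and the mean with its SD as a black bar. Myb lies between 2.90 and 9.64 with dexamethasone and between 0.00 and 5.19 without, and the groups overlap in every gene.

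Of the partner lists none had a called gene. The log2 fold changes of 16 tested stem and progenitor transcription factors were above 0 in 11 and below 0 in 5, with a median of 0.21. Over all tested genes the median was 0.06 and 55.0% were above 0, and the lists were not tested against that share. Of 9 tested elongation and DOT1L partners 7 were above 0 and 2 below, with Men1, the menin gene, at 2.19 ± 1.01 (SE, unadjusted p = 0.0381, adjusted p = 1.00 in edgeR). Myc was at 0.83 ± 0.55 (SE) and Runx3 at 1.76 ± 1.15 (SE).

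Across the 23 pairs the genes whose pair means followed each of the 9 most closely are given as a description, since the points share the difference between classes. For Mllt3 they were Ttll12 (Pearson r = 0.885), the red cell membrane skeleton gene Add2 (0.879) and Atl2 (0.868), and within the 16 Gata1-high pairs r was 0.796, 0.703 and 0.669. For Lyl1 they were Katna1 (0.800), Nfu1 (0.766) and Strbp (0.707), with 0.865, 0.731 and 0.670 in Gata1-high pairs. For Runx1 they were Ptcd2 (0.738), Rab9 (0.737) and Snx9 (0.736), with 0.725, 0.712 and 0.800 in Gata1-high pairs. For Etv6 the forkhead gene Foxp1 led (0.722), for Myb it was Acad8 (0.658) and for Cbfb Marf1 (0.655), each out of 5930 genes. Meis1, Erg and Cd34 reached 10 CPM in 8, 1 and 6 of the 23 pairs, too few for this measure.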

How the data were processed

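Per the labels' protocols, polyadenylated RNA of single daughter cells was sequenced. The deposited values are the authors' raw read counts for each gene, made with STAR 2.4 and featureCounts on GRCm38 per the submitters' processing notes. How libraries were made and whether reads were counted by strand is not given in the sources, and limits of 3 reads cover counting error only. Reads carried no stated molecular identifiers.

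From the deposited counts, CPM of the library total and log2(CPM + 1) were computed, and TPM from the exon lengths of GENCODE M21 (GRCm38), which also gave gene positions. The 4 libraries under 100000 counts were kept in the fits and left out of class levels. Treatment was tested with edgeR 4.0.16 (R 4.3.3) on counts summed over each of 26 pairs, with TMM scaling, filterByExpr (minimum count 10, minimum total 15) and Benjamini-Hochberg adjustment over all genes, at an adjusted p under 0.05. Likeness of daughters was tested by edgeR's F test of pair terms within treatment, on genes that had 5 counts or more in 10 libraries or more, in 25 pairs because 1 library of untreated pair 4 was empty. Class levels used the same limit over the 48 deeper libraries and carry no test. Alternatives with limma 3.58.1, DESeq2 1.42.0, other filters, plate columns and fewer pairs are in the closing section. Plate columns entered treatment fits as 1 to 4 against 5 to 7, and the daughter fit as 7 single columns. Both fits were tested on simulated counts.

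The 9 genes and the partner and marker lists were chosen with earlier results of these data known. Named beside them were, per list, up to 4 genes with the smallest p for dexamethasone or the largest class difference, and the 3 genes closest to each of the 9 by Pearson correlation of pair means among genes that reached 10 CPM in 10 or more of 23 pairs. Marker genes of single cells, Mpo and Tmsb4x were named after their values were seen. The values of 1 gene of the partner and marker lists are not reported here, and it is left out of the figures.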

Additional observations from a re-analysis of the deposited data

Results flagged for a closer look

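In groups of 5 or 8 pairs of 1 class, or of 1 class and treatment, the highest or lowest pair was compared with the spread of the others by Dixon's 95% limit, in 26 groups. In 7 of them a pair stood apart. Chance gives about 1 in 20 groups for normally distributed values, which these are not: where the other pairs were at or near 0, as for Erg, Mllt3 and Meis1 below, any pair with reads stands apart, so the number of such pairs was not read against chance. All values are pair means of log2(CPM + 1).

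Cd34 in dexamethasone pair 11 was at 4.86 among Gata1-high dexamethasone pairs, where the other 7 reached at most 1.17, through the 1 cell described above. Cd34 in untreated pair 2 was at 2.30, from 10 and 7 reads, where the other untreated Gata1-high pairs reached at most 1.11. Runx1 in untreated pair 6 was at 0.44, below 4.75 to 7.54 in the other 7. Meis1 in dexamethasone pair 1 was at 4.32, above 0.45 in the next pair, with 97.8 CPM in cell 1. Erg was at 2.90 in Mpo-high dexamethasone pair 10 and at 2.08 in Gata1-high dexamethasone pair 8, which was the only pair above 0 among the Gata1-high dexamethasone pairs. Mllt3 in dexamethasone pair 6 was at 0.26 among Mpo-high pairs, which is 1 read.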

How the results depend on the processing

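Leaving out 1 pair at a time kept the count of genes called for dexamethasone at 0, with log2 fold changes of 1.03 to 2.75 for Myb, 1.00 to 3.30 for Etv6, -0.88 to -0.32 for Lyl1, -1.79 to -1.14 for Mllt3, -0.82 to 0.40 for Runx1 (lowest without dexamethasone pair 7) and -1.29 to 1.41 for Cbfb (lowest without dexamethasone pair 6). Without the filter on low counts edgeR called 2180 of 18871 genes, Erg among them, but 0 of 18628 without shallow pairs and 0 of 17256 in Gata1-high pairs. DESeq2 called 2. The direction of Runx1 turned, to -0.64 with limma on pair means (with or without every one of the 9 genes in the fit), -0.16 with limma without shallow pairs, -0.77 with limma, -0.91 with edgeR and -0.89 with edgeR and no filter in Gata1-high pairs alone. Cbfb turned to -0.10 in DESeq2, -0.17 without shallow pairs and -0.14 there with no filter, and Cd34 to -0.25 in the last setting, against 0.10 without the filter in all pairs. None of these was past the threshold, and the cause was not tested.

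Pair numbers of the labels did not pair the treatments, since deviations of same-numbered pairs correlated at -0.10 to 0.13 and over 0.1 in 4 of 13. With the number as a replicate block 0 genes were called, with Runx1 at -0.28, Cbfb at -1.11, Myb at 3.08, Etv6 at 0.45, Lyl1 at -1.95 and Mllt3 at -3.15.

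For daughters, 276 genes became 493 with limma, 651 with limma without shallow pairs, 82 with plate columns as a covariate and, in Gata1-high pairs alone, 27 with edgeR and 217 with limma. The count of the 9 genes at least 2 log2 units apart between classes was 3, or 5 among untreated and 6 among dexamethasone pairs alone, where fewer pairs enter. The share of all genes that far apart in those smaller sets is not given here. The counts of 5 and 6 were therefore not read as a result about the 9 genes. Limma fits without pairs, and those without the filter in fewer pairs, were chosen after seeing the data.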
